A study of Mus musculus with 6 samples.

Results

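Unannotated splice junctions were exon-to-exon joins seen in the reads of this series that the authors' junction tables did not mark as known. The junctions described here were those whose deposited type ends in UNIQ and whose reads summed to 20 or more over the 6 libraries. There were 1211 of them among 27022 unannotated junctions and 199018 junctions in all. All of them carried 1 type, ALT_UNIQ. The study used a mouse aortic cell line, labelled endothelial, in which Ptbp1 had been deleted by CRISPR and then rescued with a human PTBP1 cDNA, and sequenced each line with and without tumour necrosis factor (TNF, 30 ng/mL). The knockout was a single cell clone. Every library came from the same TetOn-SV40 immortalised line, labelled Fn AB+/- and taken off doxycycline before treatment. There was 1 library per genotype and treatment.

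File names and labels read differently for 4 of the 6 libraries. Groups here follow the file names. The KO-named libraries are labelled WT_TNF (file named KO with TNF) and Rescue (KO). The rescue-named libraries are labelled Rescue_TNF (rescue with TNF) and KO_TNF (rescue). The basal-named libraries, read here as the parental cells, which the file names do not state, are labelled KO (basal with TNF) and WT (basal). Which reading is right was not tested, and each direction below holds for the file names alone. The chemokine gene Ccl2, which TNF induces, was at 865, 3793 and 4699 TPM (transcripts-per-million, deposited) in the KO-, rescue- and basal-named libraries with TNF, against 70.1, 121 and 109 TPM without it. With no replicate cultures, adjusted p-values set each effect against unevenness across the other factor of an additive genotype and TNF fit. They do not measure the spread between cultures.

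Ptbp1 is an RNA-binding protein that attaches to pyrimidine-rich stretches of introns and usually keeps nearby exons out of the mRNA. Many exons that it keeps out are used in neurons and muscle, where Ptbp1 is low. A junction absent from the annotation can mark an exon nobody listed, or a pairing of listed exons that nobody listed. Here nearly all were pairings: both ends were splice sites of the GENCODE vM21 annotation in 1205 of 1211 junctions (99.5%). Each deposited junction joins numbered nodes, the exon segments that the files list, so exons at unlisted sites could not appear. Junction reads per library ranged from 14729518 to 16886361.

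The junctions into or out of 9 exons are taken up first. Each of these junctions used an end that had fewer than 10 reads from all junctions in both basal-named libraries. Of the 9, the 6 held by vM21 transcripts are printed 5′ to 3′ (GRCm38, GENCODE vM21), with the exon in capitals and 20 bases of the exons joined on each side in lower case:
Phldb2, 183 nt, chr16:45774163-45774345, minus strand: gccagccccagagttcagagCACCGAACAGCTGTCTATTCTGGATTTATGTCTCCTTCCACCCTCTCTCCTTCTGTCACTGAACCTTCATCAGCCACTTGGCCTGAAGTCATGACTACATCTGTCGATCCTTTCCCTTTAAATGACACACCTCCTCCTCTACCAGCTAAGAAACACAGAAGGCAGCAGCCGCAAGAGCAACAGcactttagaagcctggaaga
Dctn1, 21 nt, chr6:83187764-83187784, plus strand: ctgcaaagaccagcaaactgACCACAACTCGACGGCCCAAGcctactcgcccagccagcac
Rapgef1, 258 nt, chr2:29719593-29719850, plus strand: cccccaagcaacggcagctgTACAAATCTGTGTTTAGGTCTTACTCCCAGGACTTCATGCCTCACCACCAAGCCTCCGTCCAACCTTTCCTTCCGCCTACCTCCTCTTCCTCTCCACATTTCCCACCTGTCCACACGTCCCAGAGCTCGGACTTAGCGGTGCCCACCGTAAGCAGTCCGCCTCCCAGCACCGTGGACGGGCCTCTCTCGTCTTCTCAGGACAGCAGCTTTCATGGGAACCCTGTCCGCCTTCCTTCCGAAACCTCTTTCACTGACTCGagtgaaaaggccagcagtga
Aak1, 102 nt, chr6:86981296-86981397, plus strand: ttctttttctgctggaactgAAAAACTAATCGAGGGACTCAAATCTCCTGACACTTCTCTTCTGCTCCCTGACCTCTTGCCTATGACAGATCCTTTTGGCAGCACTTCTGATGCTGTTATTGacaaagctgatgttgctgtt
Mical2, 102 nt, chr7:112335329-112335430, plus strand: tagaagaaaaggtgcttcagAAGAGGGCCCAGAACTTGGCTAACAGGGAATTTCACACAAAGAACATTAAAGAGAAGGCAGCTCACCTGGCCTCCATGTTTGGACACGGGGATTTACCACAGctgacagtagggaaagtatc
Lrrfip1, 93 nt, chr1:91108580-91108672, plus strand: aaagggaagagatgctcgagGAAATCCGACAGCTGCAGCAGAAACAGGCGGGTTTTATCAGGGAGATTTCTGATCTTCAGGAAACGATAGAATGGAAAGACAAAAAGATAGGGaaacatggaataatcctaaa
The other 3 of the 9 lie in Hspg2 (102 and 207 nt) and Ube4b (138 nt), at coordinates that only the files' own annotation holds. Lengths of all 9 were multiples of 3, from 21 to 258 nt. A further junction with such an end, in Idh3b, reaches a node of 125 nt that follows a retained intron node. That length is not a multiple of 3, and the node is not among the 9. The Hspg2 and Ube4b exons are not in vM21, so whether they are coding was not tested. For scale, 41% of the 166494 internal coding exons of vM21 have a length that is a multiple of 3. Among junctions tested for use with both ends in coding sequence, 235 kept the reading frame and 94 shifted it. The 9 exons were taken from junctions used more in KO-named libraries, so their lengths are no test against either scale.

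The 1211 junctions fell in 1007 genes, of which 873 held 1 each. Pvt1, Col1a1 and Lrrfip1 held the most, 6 each. Most skipped exons: 996 (82.2%) joined 2 sites of 1 annotated transcript and passed over what lay between, which was 1 exon in 852, 2 exons in 91 and 3 or more in 53. Exons and bases passed over were counted, here and below, in the transcript with the fewest exons between the 2 sites. These counts are therefore minimums, and other transcripts can hold more exons there. The single exons passed over had a median length of 111 nt and ran from 3 to 2119 nt, with 28 of 27 nt or fewer. Another 145 (12%) joined sites that no one transcript of vM21 holds together, 64 (5.28%) were introns of vM21 all the same, and 6 had an end outside vM21. Where both ends lay in coding sequence (909 junctions), 550 kept the reading frame (60.5%) and 359 shifted it.

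Reads per junction were low. The median total over 6 libraries was 35 reads, the highest 5444, and 180 junctions had 100 or more. These 1211 were 4.48% of the unannotated junctions and held 59.5% of the unannotated reads, while 47.6% of unannotated junctions had 1 read in all. At the threshold, 77 junctions had 20 reads, with 0 to 13 in any 1 library, and 72 had 19, with 0 to 11. All 6 libraries had reads for 1031 of the 1211.

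Unannotated junctions took a larger share of junction reads in KO-named libraries. The share was 0.209% in both KO-named libraries, 0.192% with TNF and 0.189% without in the rescue-named ones, and 0.178% and 0.177% in the basal-named ones. Exact 95% binomial intervals, which cover counting error only, ran from 0.206% to 0.212% in the KO-named libraries, from 0.187% to 0.194% in the rescue-named and from 0.175% to 0.180% in the basal-named. The 3 genotypes did not overlap, with TNF and without it giving nearly the same share. With 1 library per group this difference has no replicate check. Among the 1211 alone the shares were 0.122% and 0.125% in KO-named, 0.112% and 0.112% in rescue-named, and 0.107% and 0.110% in basal-named libraries. Heavily read junctions weigh on these shares. Pdlim7 11-14 had 694 and 780 reads in KO-named and 176 and 153 in basal-named libraries. It took 97.2% to 99.4% of the reads at its sites in every library. Anxa1 10-25 was higher in KO-named libraries by 0.95 on the log2 scale, but by 0.01 relative to other junctions of its gene. Fstl1 3-6, the most-read, went the other way (log2 -0.35). The part of gene level in the higher share was not tested.

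**Figure D1:**
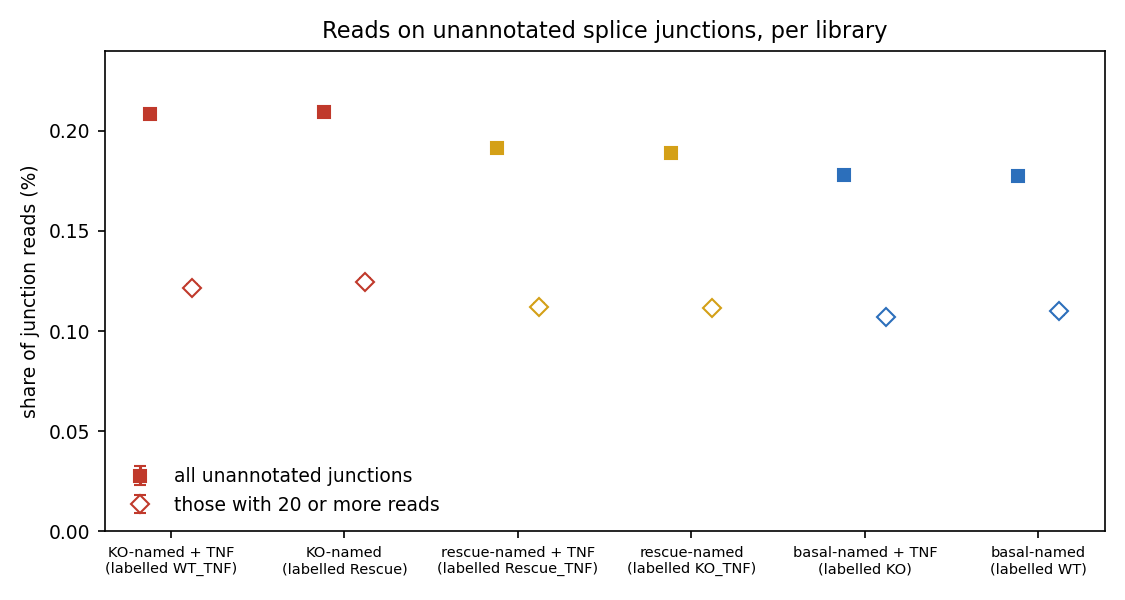
Share of junction reads (%, vertical axis) on all unannotated junctions (filled squares) and on those with 20 or more reads (open diamonds) in each of the 6 libraries. Bars are exact 95% binomial intervals, smaller than most symbols; the KO-named libraries sit at 0.209%, above the rescue-named at 0.189% to 0.192% and the basal-named at 0.177% to 0.178%.

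A filter on low counts left 454 of the 1211 junctions to be tested for their level (RPM, reads-per-million junction reads) and 448 for their use within the gene (a junction against the other junctions of its gene). The other 757 were too sparse to test. A junction could pass this filter through the group where it was high, so the counts that follow describe those tested and support nothing by themselves. KO-named against basal-named, the level was higher for 51 and lower for 23 by edgeR's quasi-likelihood test at an adjusted p under 0.05, or 16.3% of those tested against a background of 14.6% over all 112574 junctions. Within-gene use was higher for 21 and lower for 4, or 5.58% against a background of 0.404%. In the higher direction alone the background was 6.99% for level and 0.276% for use, and in the lower 7.61% and 0.128%. The 25 calls for use became 10 without the basal-named library labelled KO, 10 without that labelled WT and 0 with the labels' own groups, and the 74 for level became 22 by DESeq2 and 0 with the labels' groups. The median log2 difference in level was 0.11 over the tested unannotated junctions and -0.02 over all junctions. The junctions were chosen on their summed reads in these libraries, and at an unadjusted p under 0.05 the same tests had 134 junctions for level and 84 for use.

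**Figure D2:**
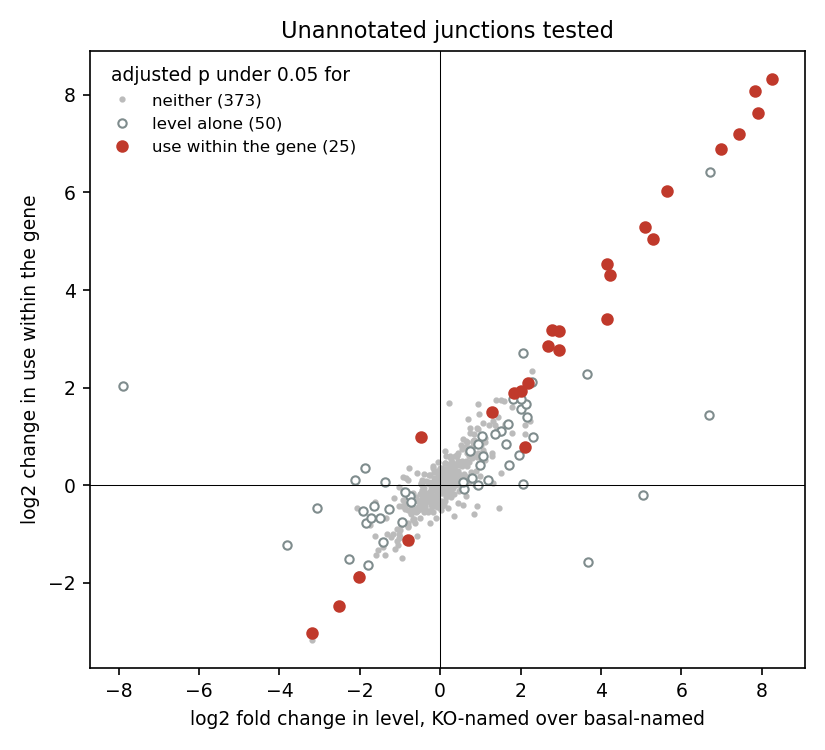
Each point is 1 of the 448 unannotated junctions tested both ways, with the log2 fold change in level (KO-named over basal-named) on the horizontal axis and the log2 change in use within its gene on the vertical axis. Of these, 25 passed for use (filled red), 50 for level alone (open grey) and 373 for neither. The level-alone point at the far left is Hp, with a log2 level of -7.89 and a log2 change in use of 2.04.

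Of the 21 junctions used more in KO-named libraries, 10 in 9 genes had the nearly silent end described above, an acceptor in 8 and a donor in 2. That end had 12 to 211 reads per KO-named library, 1 to 70 per rescue-named library and 0 to 6 per basal-named library. Among the other 427 junctions tested for use, 12 had such an end. A junction with such an end has few basal-named reads by definition and could pass the filter only through other libraries. The 2 counts are therefore no test of whether such ends are more common among the 21. The other 11 of the 21 joined sites that basal-named cells used too. Site use is the share of the reads at a junction's donor and acceptor that the junction takes. Its median over the 21 was 11.4% in KO-named, 2.91% in rescue-named and 0.593% in basal-named libraries. The 21 were chosen as higher in KO-named than in basal-named libraries, and that choice favours this order.

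**Figure D3:**
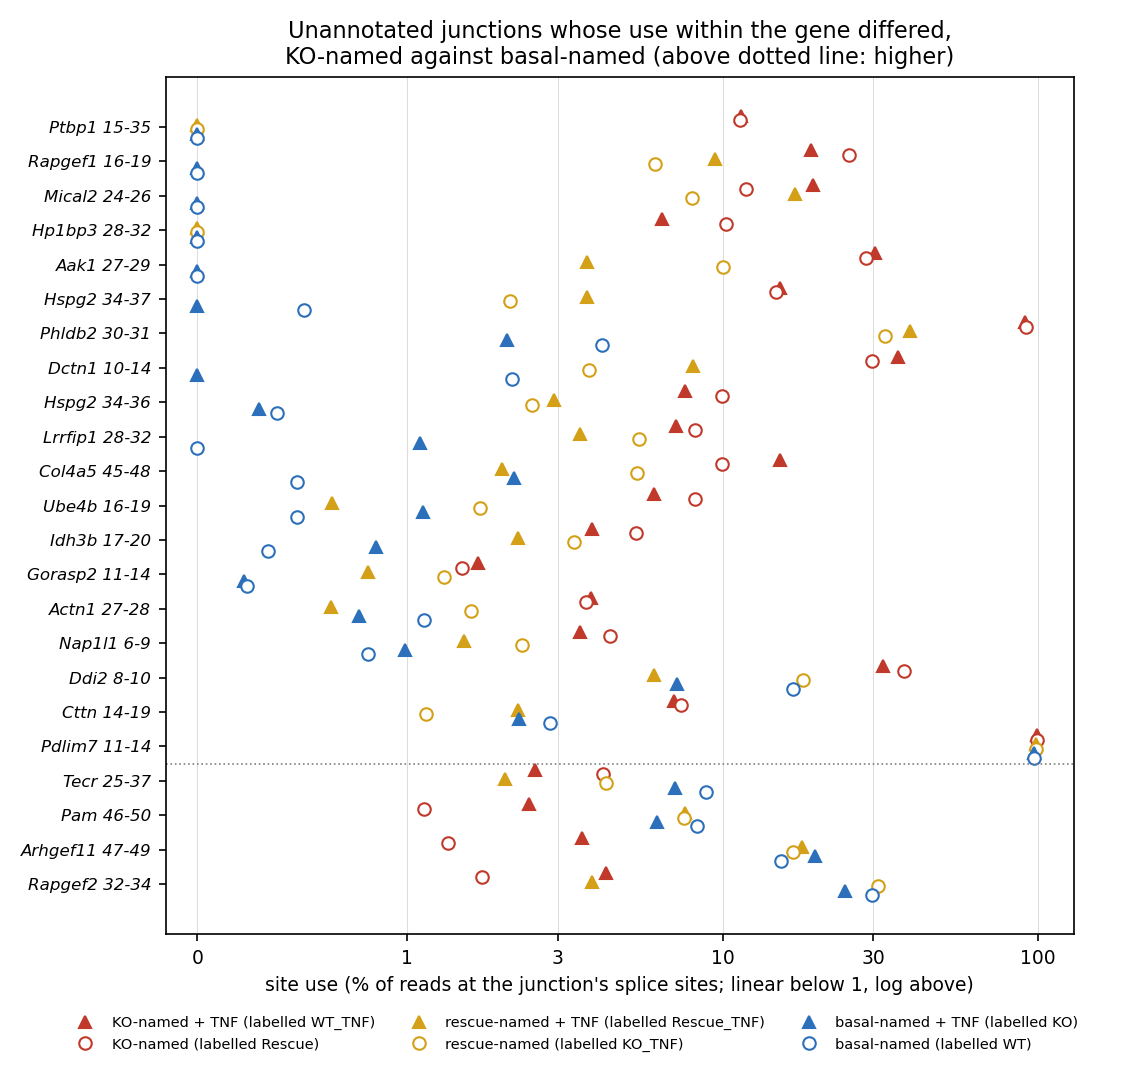
Site use (%, horizontal axis, linear below 1 and logarithmic above) of 23 of the 25 junctions whose use within the gene differed between KO-named and basal-named libraries, 1 point per library, triangles with TNF and circles without. Red KO-named points lie to the right of blue basal-named points for the 19 junctions above the dotted line and to the left for the 4 below it, and the mean of the yellow rescue-named points lies between theirs for 16 of the 19. The junctions were chosen by the difference between KO-named and basal-named libraries, which favours this order.

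The largest gain in site use was in Phldb2, which encodes LL5-beta, a protein that anchors microtubules at the cell cortex. Junction 30-31 (nodes are numbered in transcription order; chr16:45774345-45774944) enters the 183-nt exon printed above. It had 156 reads with TNF and 206 without in the KO-named libraries, 70 and 62 in the rescue-named and 4 and 6 in the basal-named. It took 90.7% and 91.6% of the reads at its sites in KO-named libraries, 39.3% and 32.8% in rescue-named and 2.07% and 4.14% in basal-named. The 3 genotypes did not overlap, and the rescue-named libraries lay between the KO-named and the basal-named. The log2 change in use was 5.30 for KO-named over basal-named (edgeR diffSpliceDGE, adjusted p = 4.63e-13). The annotated skipping junction 30-33 ran the other way, with 16 and 14 reads in KO-named, 108 and 127 in rescue-named and 189 and 139 in basal-named libraries. Deposited psi of the exon, the fraction of transcripts that include it, was 0.895 and 0.917 in KO-named, 0.337 and 0.266 in rescue-named and 0.0207 and 0.0284 in basal-named libraries.

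In Dctn1, which encodes the p150Glued subunit of the dynein cofactor dynactin, junction 10-14 (chr6:83183333-83187764) reaches a 21-nt exon and passes over 2 others of 39 nt together. Reads were 51 with TNF and 39 without in KO-named, 9 and 5 in rescue-named and 0 and 2 in basal-named libraries. Site use was 35.9% and 29.8% in KO-named libraries, 8.04% and 3.76% in rescue-named ones, and 0% and 2.15% in basal-named ones (log2 change in use 5.04, edgeR adjusted p = 4.97e-12). No rescue-named or basal-named library reached either KO-named one. The junction out of the exon, 14-16, is annotated and had 60 and 36 reads in KO-named, 11 and 5 in rescue-named and 0 and 3 in basal-named libraries.

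Hspg2 encodes perlecan, the large heparan sulfate proteoglycan of basement membranes. A pair of unannotated junctions left the same donor (chr4:137522650) and reached exons of 102 nt (34-36, acceptor at 137524355) and 207 nt (34-37, acceptor at 137524936). Junction 34-37 had 109 and 109 reads in KO-named, 26 and 13 in rescue-named and 0 and 4 in basal-named libraries, or 15.2% and 14.7%, 3.71% and 2.12%, and 0% and 0.506% of the reads at its sites (log2 change in use 6.02, edgeR adjusted p = 2.57e-40). Its shorter neighbour had 49 and 66, 20 and 15, and 3 and 3 reads in the same order of libraries. Annotated junction 36-37, which links these exons to each other, had 84 and 82 reads in KO-named, 15 and 16 in rescue-named and 0 and 1 in basal-named libraries, so the exons also occurred together. The usual junction 34-39 that skips both stayed the main one everywhere, with 459 and 471 reads in KO-named, 637 and 559 in rescue-named and 1007 and 778 in basal-named libraries.

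Rapgef1 encodes an exchange factor that activates the small GTPase Rap1 at cell junctions. Its junction 16-19 (chr2:29707400-29719593) enters the 258-nt exon and passes over the 153-nt exon before it. It had 24 and 33 reads in KO-named libraries, 12 and 7 in rescue-named ones and none in either basal-named one. That was at least 9.35-fold higher in KO-named than in basal-named libraries, counted against a floor of 3 reads per library (log2 change in use 8.09, which depends on the prior count; edgeR adjusted p = 1.35e-09). The donor had 107 reads with TNF and 75 without in the basal-named libraries, so the site was in use there. Annotated junctions of the same pair of exons moved alike: 18-19 had 35 and 18 reads in KO-named, 4 and 12 in rescue-named and 0 and 0 in basal-named libraries. Psi of the 258-nt exon was 0.473 and 0.391 in KO-named, 0.101 and 0.116 in rescue-named and 0 and 0 in basal-named libraries.

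Aak1 encodes a kinase that phosphorylates the clathrin adaptor AP-2. Junction 27-29 (chr6:86967373-86981296) skips a 96-nt exon to reach the 102-nt one and had 14 and 18 reads in KO-named, 1 and 2 in rescue-named and 0 and 0 in basal-named libraries, at least 5.25-fold higher in KO-named than in basal-named (edgeR adjusted p for use = 0.000127). Without the basal-named library labelled KO the adjusted p was 0.0517, and without that labelled WT it was 0.124. Depth limits this gene: psi of the 102-nt exon was 0.936 and 0.707 in KO-named, 0.478 and 0.432 in rescue-named and 0 and 0.4 in basal-named libraries, the last pair from 6 and 5 reads.

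Mical2 encodes a monooxygenase that oxidises and takes apart actin filaments. Here the silent end was a donor: junction 24-26 (chr7:112335430-112345246) leaves the 102-nt exon. Reads were 42 with TNF and 17 without in KO-named, 9 and 4 in rescue-named and 0 and 0 in basal-named libraries, at least 9.71-fold higher in KO-named than in basal-named (edgeR adjusted p for use = 0.000806). Site use was 19.4% and 11.9% in KO-named, 17% and 8% in rescue-named and 0% and 0% in basal-named libraries. The KO-named and rescue-named libraries overlapped, and rescue-named against KO-named did not pass for use (edgeR adjusted p = 0.515). Leaving out the basal-named library labelled KO gave an adjusted p of 1 and leaving out that labelled WT gave 0.195. A second unannotated junction of the gene, 22-26, had 14 and 12, 3 and 4, and 0 and 0 reads, and passed for level (log2 6.70, edgeR adjusted p = 0.00420) but not for use (adjusted p = 0.0967). Node 26 (108 nt), which both of them enter, had a psi of 0.731 and 0.71 in KO-named, 0.317 and 0.187 in rescue-named and 0.135 and 0.0898 in basal-named libraries.

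Lrrfip1, which encodes a protein that binds the actin regulator Flightless-1 and nucleic acids, held 6 unannotated junctions. Junction 28-32 (chr1:91108672-91112156) leaves the 93-nt exon and passes over another of 93 nt. It had 33 and 26 reads in KO-named, 13 and 18 in rescue-named and 3 and 0 in basal-named libraries (log2 change in use 3.40, edgeR adjusted p = 0.00534, and 0.949 without the basal-named library labelled WT). Rescue-named reads lay below both KO-named and above both basal-named ones. The annotated junction into the exon, 26-27, had 100 and 51 reads in KO-named, 25 and 18 in rescue-named and 4 and 2 in basal-named libraries. In Ube4b, whose product extends ubiquitin chains, junction 16-19 had 11 and 15, 1 and 3, and 2 and 1 reads (log2 change in use 3.16, edgeR adjusted p = 0.00484). That call was lost without any 1 of the KO-named or basal-named libraries, with adjusted p from 0.158 to 1. The tenth of these junctions, Idh3b 17-20, in the gene of a mitochondrial isocitrate dehydrogenase subunit, reaches an acceptor that follows a retained intron node, and had 13 and 15, 7 and 13, and 3 and 1 reads (log2 change in use 2.85, edgeR adjusted p = 0.00753).

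**Figure D4:**
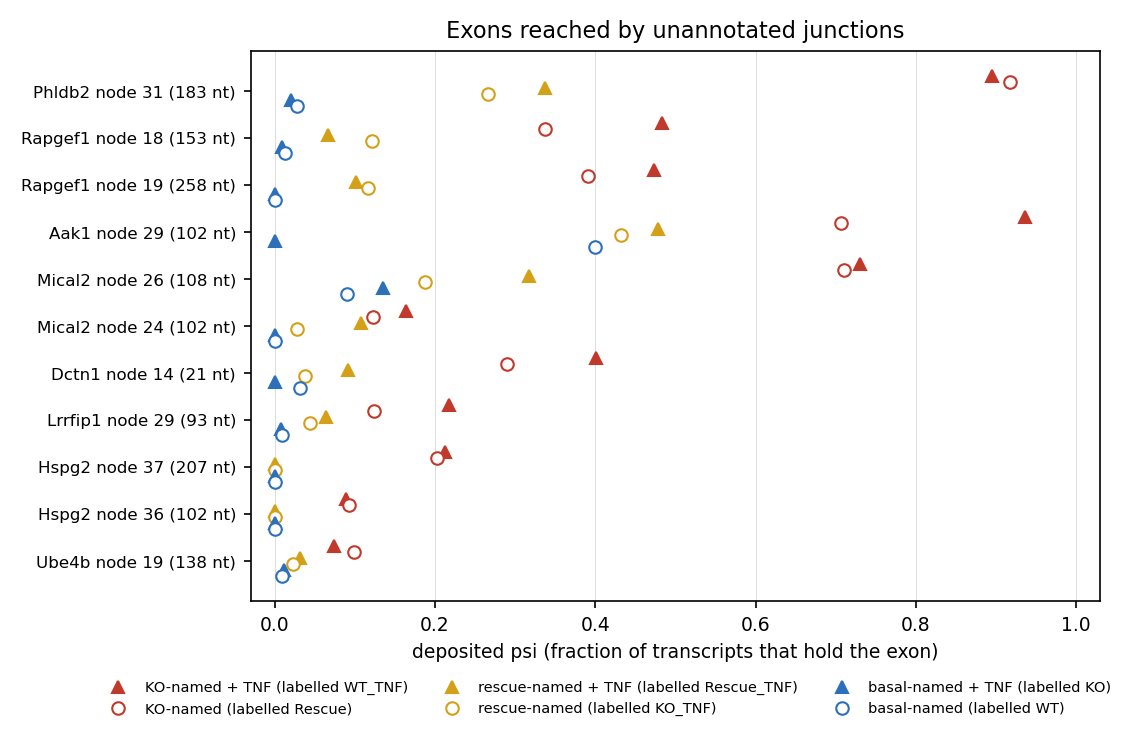
Deposited psi (horizontal axis, 0 to 1) of exons that these junctions enter, leave or pass over, 1 point per library, triangles with TNF and circles without. Lrrfip1 node 29 is the 93-nt exon that junction 28-32 passes over, not the one it leaves. Rapgef1 node 18 (153 nt) is passed over by junction 16-19. KO-named points (red) lie to the right of the rescue-named (yellow) and basal-named (blue) points in each of the 11 exons, from 0.0735 in Ube4b up to 0.936 in Aak1.

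The remaining 11 junctions used more in KO-named libraries mostly skipped exons that parental cells include. For 2 of them and for 1 that joins both members of an exclusive pair, the join is printed with the last 20 bases of the donor exon in lower case and the first 20 of the acceptor exon in capitals (GENCODE vM21, GRCm38):
Ptbp1 15-35, chr10:79858824-79860824, plus strand: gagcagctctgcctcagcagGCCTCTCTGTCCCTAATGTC
Hp1bp3 28-32, chr4:138228787-138230364, plus strand: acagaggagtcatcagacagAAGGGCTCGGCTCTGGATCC
Actn1 27-28, chr12:80170248-80170686, minus strand: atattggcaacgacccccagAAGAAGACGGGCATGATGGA
The first of these lies in the deleted gene itself. Ptbp1 15-35 joins exon 3 to exon 8 of its transcript and leaves out exons 4 to 7, of 200, 171, 111 and 175 nt, 657 nt together and in frame. It had 41 reads with TNF and 36 without in KO-named libraries and none in the other 4, at least 12.6-fold higher in KO-named than in basal-named libraries (edgeR adjusted p for use = 3.83e-10). It took 11.4% of the reads at its sites in both KO-named libraries.

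The passed-over exons of Ptbp1 were read in KO-named libraries too. The annotated junction between exons 4 and 5 had 207 and 196 reads in KO-named, 72 and 51 in rescue-named and 277 and 177 in basal-named libraries. That between exons 6 and 7 had 93 and 57 in KO-named, none in either rescue-named library, and 604 and 359 in basal-named ones. Gene level was 219 and 212 TPM in KO-named, 78.3 and 80.6 TPM in rescue-named and 198 and 180 TPM in basal-named libraries, so Ptbp1 RNA was lowest in the rescue-named pair. Reads of the human cDNA that map to the mouse gene would add to these counts, and their part was not tested. Where the deletion lies in the gene is not given in the sources used here.

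**Figure D5:**
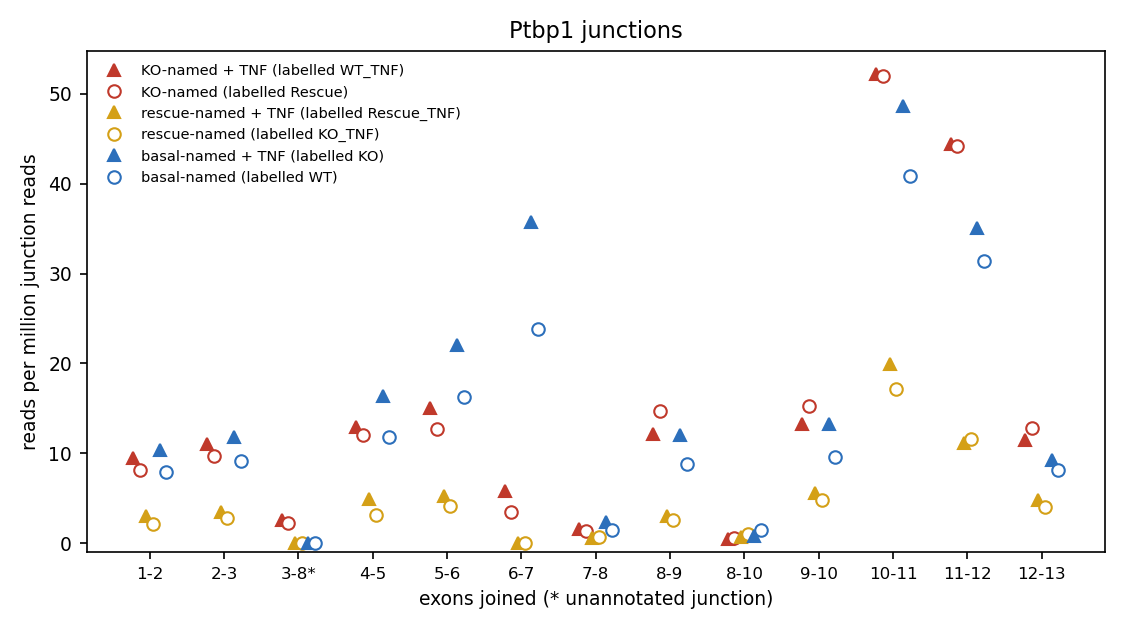
Reads-per-million junction reads (vertical axis) of Ptbp1 junctions by the exons they join (horizontal axis, the asterisk marks the unannotated junction), 1 point per library, triangles with TNF and circles without. The 3-8 junction is above 0 in the KO-named libraries alone, and the 6-7 junction is at 0 in both rescue-named libraries and highest in the basal-named ones.

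Hp1bp3 encodes a chromatin protein that binds heterochromatin protein 1. Its junction 28-32 skips a 78-nt exon and had 17 and 27 reads in KO-named libraries and 0 in the other 4, at least 7.22-fold higher in KO-named than in basal-named libraries (edgeR adjusted p for use = 9.39e-08). The inclusion junction 28-30 was at like counts throughout, 126 and 123 reads in KO-named, 114 and 125 in rescue-named and 117 and 138 in basal-named libraries.

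Actn1 encodes alpha-actinin-1, an actin cross-linker with a pair of mutually exclusive exons in its calcium-binding region, a pair known from rat as a target of Ptbp1. Nodes 27 (81 nt) and 28 (66 nt) are neighbours in the gene, and the unannotated junction 27-28 joins them to each other. It had 38 and 33 reads in KO-named, 6 and 17 in rescue-named and 7 and 8 in basal-named libraries, from 0.638% to 3.81% of the reads at its sites (log2 change in use 2.09, edgeR adjusted p = 0.000528). The call was lost without the KO-named library labelled WT_TNF (adjusted p = 0.899) and without either basal-named one. Psi of the 66-nt exon was 0.265 and 0.266 in KO-named, 0.149 and 0.139 in rescue-named and 0.291 and 0.289 in basal-named libraries, so the exon itself was lowest in the rescue-named pair. In its paralogue Actn4, junction 30-38 passes over an 81-nt exon (node 33) and a 66-nt one (nodes 35 and 36). Psi of the 81-nt exon was 0.886 and 0.909 in KO-named, 0.983 and 0.962 in rescue-named and 0.977 and 0.981 in basal-named libraries. That of the 66-nt exon was at most 0.0653. The junction had 27 and 24, 4 and 7, and 8 and 6 reads. It was higher in level in KO-named libraries (log2 1.81, edgeR adjusted p = 0.0184) without passing for use (adjusted p = 0.137).

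In 3 further genes the junction skips 87 nt (Gorasp2), 189 nt (Nap1l1) or 62 nt outside the coding sequence (Ddi2). Gorasp2 11-14, in a Golgi stacking protein gene, had 17 and 17 reads in KO-named, 7 and 14 in rescue-named and 2 and 2 in basal-named libraries. Nap1l1 6-9, in a histone chaperone gene, had 22 and 20, 9 and 13, and 6 and 4. Ddi2 8-10, in the gene of a protease that acts with the proteasome, had 28 and 24, 4 and 11, and 5 and 9. Their log2 changes in use were 2.77, 1.94 and 1.89 (edgeR adjusted p = 0.00799, 0.0486 and 0.0369).

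In Cttn, which encodes the cortical actin organiser cortactin, 3 unannotated junctions end at node 19 and skip 111-nt exons that encode its repeats. They skip at least 1, 2 or 3 of these, as counted in the vM21 transcript with the fewest exons between the sites. Nodes 15 and 16, of 111 nt each, both lie inside junction 14-19, with a psi of at least 0.728 in every library. Junction 14-19 had 66 and 61 reads in KO-named, 19 and 11 in rescue-named and 23 and 27 in basal-named libraries (log2 change in use 1.5, edgeR adjusted p = 0.000202). Pdlim7 encodes the LIM protein Enigma, and its junction 11-14 skips no exon and is an intron of vM21, though the files mark it unannotated. It had 694 and 780, 300 and 304, and 176 and 153 reads (log2 level 2.12, log2 change in use 0.78, edgeR adjusted p for use = 0.00780). Site use there was 97.2% to 99.4% in every library, and the gene was at 238 and 267 TPM in KO-named, 114 and 121 TPM in rescue-named and 64.2 and 66.5 TPM in basal-named libraries. Col4a5 45-48, which passes over a 9-nt exon and enters another in the type IV collagen alpha 5 gene, had 15 and 15, 1 and 4, and 3 and 1 reads (log2 change in use 3.18, edgeR adjusted p = 0.000705, lost without any 1 of the KO-named or basal-named libraries).

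The 4 junctions used less in KO-named libraries skip exons that those cells included more often. Among them was a 24-nt microexon of Rapgef2, a Rap exchange factor gene, and a second unannotated junction of the gene skips an 18-nt one. Both microexons are in capitals between the exons they sit in (GENCODE vM21, GRCm38, minus strand):
Rapgef2 node 33, chr3:79082624-79082647: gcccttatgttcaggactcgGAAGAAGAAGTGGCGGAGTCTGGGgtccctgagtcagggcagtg
Rapgef2 node 11, chr3:79169739-79169756: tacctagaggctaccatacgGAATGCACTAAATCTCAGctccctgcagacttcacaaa
Junction 32-34, which skips the 24-nt exon, had 2 reads with TNF and 1 without in KO-named, 1 and 14 in rescue-named and 11 and 17 in basal-named libraries (log2 change in use -3.03, edgeR adjusted p = 0.0366, lost without any 1 of the KO-named or basal-named libraries). The rescue-named libraries disagreed with each other here. Junction 9-16, which skips the 18-nt exon, had 5 and 10 reads in KO-named, 35 and 30 in rescue-named and 25 and 26 in basal-named libraries. It fell in level by 1.80 on the log2 scale (edgeR adjusted p = 0.0169) and did not pass for use against basal-named (adjusted p = 0.143). Psi of the 18-nt exon was 0.615 and 0.574 in KO-named, 0.239 and 0.0769 in rescue-named and 0.152 and 0.188 in basal-named libraries.

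Arhgef11, which encodes the RhoA exchange factor PDZ-RhoGEF, had 5 and 2 reads on junction 47-49 in KO-named, 21 and 22 in rescue-named and 23 and 17 in basal-named libraries. Site use was 3.57% and 1.34% in KO-named, 17.8% and 16.7% in rescue-named and 19.7% and 15.3% in basal-named libraries, and the 129-nt exon it skips had a psi of 0.931 and 0.974, 0.698 and 0.714, and 0.671 and 0.734 (log2 change in use -2.48, edgeR adjusted p = 0.00290, lost without either KO-named library or the basal-named one labelled KO). KO-named and rescue-named libraries did not overlap, and rescue-named and basal-named ones did. Pam, the gene of the peptide-amidating monooxygenase, followed the same order, with 12 and 6, 24 and 26, and 35 and 37 reads on junction 46-50 (log2 change in use -1.88, edgeR adjusted p = 0.00129, lost without the libraries labelled Rescue or WT). Tecr 25-37, in the gene of a fatty acid elongation enzyme, had 20 and 39, 15 and 40, and 46 and 50 reads and was the only one of the 25 to shift the frame.

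Of the 25 called for use in KO-named against basal-named libraries, 19 kept the frame, 1 shifted it and 5 did not have both ends in coding sequence of vM21, of which 3 had an end outside vM21. Among all junctions tested for use, 235 kept the frame, 94 shifted it and 119 did not have both ends there. In the first class 16 were higher and 3 lower, in the second 0 were higher and 1 lower (at adjusted p under 0.05 by edgeR), and in the third 5 were higher. This is a description of the tested junctions, with no test between classes. Of the 28 junctions that skip an exon of 27 nt or fewer, 18 were tested, and by level 2 were higher and 5 lower in KO-named libraries against basal-named ones (edgeR, background 6.99% higher and 7.61% lower). The 5 were the pair in Rapgef2 and 1 each in Prkd1 (protein kinase D1), Ttc28 and Nbea (neurobeachin, a neuronal kinase-anchoring protein). Prkd1 4-6, over a 24-nt exon, had 10 and 10 reads in KO-named, 40 and 40 in rescue-named and 39 and 35 in basal-named libraries (log2 level -1.92, edgeR adjusted p = 0.00291). Use within the gene did not pass for Prkd1 (log2 -0.52), Ttc28 (log2 -0.67) or Nbea (log2 -1.16). By use, 1 of the 18 was higher and 1 lower (edgeR, background 0.276% higher and 0.128% lower).

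Rescue-named against KO-named, 18 junctions were higher and 44 lower in level (edgeR, 13.7% of 454 against a background of 7.6%), and 6 were higher and 19 lower in use within the gene (5.58% of 448 against 0.303%). At an unadjusted p under 0.05 there were 132 for level and 88 for use. The higher and lower backgrounds were 3.32% and 4.28% for level and 0.115% and 0.188% for use. The 62 calls for level became 15 without the library labelled Rescue_TNF, 9 without KO_TNF and 96 without KO, 14 by DESeq2 and 0 with the labels' groups. The 25 for use became 13 without WT_TNF, 10 without Rescue, 8 without Rescue_TNF, 2 without KO_TNF and 1 with the labels' groups. This comparison shares the KO-named libraries with the one above, so no overlap between them is given. Ptbp1 15-35 and Hp1bp3 28-32 were read in neither rescue-named library, at least 12.3-fold and 7.03-fold lower than in KO-named ones. For use, the Ptbp1 call was lost without the library labelled WT_TNF, Rescue_TNF or KO_TNF (edgeR adjusted p from 0.0727 to 0.138), and that of Hp1bp3 without KO_TNF (0.0830). Of the 21 junctions used more in KO-named than basal-named libraries, site use averaged less in rescue-named than in KO-named libraries for all 21, and every rescue-named library was below every KO-named one for 19. The rescue mean lay between KO-named and basal-named for 18 and at or below the basal-named mean for 3. These 21 were chosen as high in the same KO-named libraries and low in the basal-named ones. That choice favours rescue-named values below the KO-named ones, so these counts describe the 21 and support nothing by themselves.

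A pair of junctions was read almost only in the rescue-named libraries. Both joins are printed with the acceptor exon in capitals (GENCODE vM21, GRCm38, plus strand):
Ankrd52 18-20, chr10:128386212-128386959: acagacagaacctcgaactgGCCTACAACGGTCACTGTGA
Smarca4 18-20, chr9:21660871-21665764: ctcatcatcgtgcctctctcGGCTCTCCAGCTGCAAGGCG
Ankrd52 encodes a regulatory subunit of protein phosphatase 6, and its junction skips a 72-nt exon. It had 17 and 18 reads in rescue-named libraries, 0 and 0 in KO-named and 1 and 1 in basal-named, at least 6.07-fold higher in rescue-named than in KO-named (edgeR adjusted p for use = 0.000349). Leaving out the library labelled Rescue, Rescue_TNF or KO_TNF gave adjusted p from 0.0599 to 0.105. Smarca4 encodes the chromatin remodelling ATPase BRG1, and its junction skips a 67-nt exon and shifts the frame. It had 10 and 13 reads in rescue-named libraries and 0 in the other 4, at least 3.97-fold higher than in KO-named (edgeR adjusted p for use = 4.26e-06). In the 4 fits without 1 KO-named or basal-named library its log2 change in use ran from 6.88 to 7.17. Without either rescue-named library it had too few reads to be tested, so its dependence on those libraries is not known. Neither junction followed the order of the Phldb2 group, in which rescue-named values lay between the other genotypes. Psi of the skipped exons was 0.821 and 0.786 for Ankrd52 and 0.941 and 0.912 for Smarca4 in rescue-named libraries, and 1 in the other 4.

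Among the others that were higher in rescue-named libraries, Tbc1d9b 30-34, in a Rab GTPase regulator gene, had 26 and 24 reads in rescue-named, 3 and 7 in KO-named and 19 and 21 in basal-named libraries (log2 change in use 2.04, edgeR adjusted p = 0.0168). Rapgef2 9-16 and Arhgef11 47-49 were in this class too, with log2 changes in use of 2.29 and 2.60 (edgeR adjusted p = 0.00113 and 0.00130). Tbc1d9b lost its call without any 1 of the 4 KO-named and rescue-named libraries, Rapgef2 without WT_TNF or Rescue_TNF, and Arhgef11 without Rescue or KO_TNF. Lower ones included Xpo5 33-35, in the gene of the microRNA precursor exporter exportin-5, with 2 and 3 reads in rescue-named, 16 and 16 in KO-named and 7 and 2 in basal-named libraries (log2 change in use -2.81, edgeR adjusted p = 0.00405, lost without any 1 library but that labelled KO). Cttn 11-19, which skips at least 3 repeat exons, had 8 and 4 reads in rescue-named, 38 and 32 in KO-named and 23 and 15 in basal-named libraries (log2 change in use -2.53, edgeR adjusted p = 1.39e-05). Cttn 11-19 reads were lowest in the rescue-named pair, while those of Xpo5 overlapped between rescue-named and basal-named libraries. Piezo1 32-35, in the gene of a mechanically gated ion channel that endothelial cells use to sense flow, had 63 and 57 reads in rescue-named, 180 and 149 in KO-named and 94 and 97 in basal-named libraries (log2 change in use -1.12, edgeR adjusted p = 0.000149).

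Few unannotated junctions differed with TNF. With TNF against without, 12 were higher and 14 lower in level (edgeR, 5.73% of 454 against a background of 10.4%), and 1 was higher and 2 lower in use (0.670% of 448 against 0.0152%). Unadjusted, 85 had p under 0.05 for level and 36 for use. The higher and lower backgrounds were 5.43% and 5.02% for level and 0.00538% and 0.00986% for use. The 26 calls for level became 58 without either KO-named library, 11 without either rescue-named one, 6 by DESeq2 and 0 with the labels' groups, and the 3 for use became 1 or 0 without any 1 library. Sbno2 2-8, in the gene of a transcriptional co-regulator of inflammation, was higher. It had 14 reads with TNF and 1 without in KO-named, 37 and 3 in rescue-named and 46 and 4 in basal-named libraries, and took 40.0% against 5.26%, 46.2% against 12.5% and 42.2% against 19% of the reads at its sites. The junction skips a 112-nt exon outside the coding sequence (chr10:80086432-80104202, log2 change in use 2.48, edgeR adjusted p = 0.0214). Its donor, node 2, is typed as an alternative first exon. All reads at that donor rose with TNF too, 18 against 1 in KO-named, 44 against 6 in rescue-named and 65 against 4 in basal-named libraries. Whether the choice of first exon or the skipping changed was not tested. Slc38a2 4-8, in the gene of an amino acid transporter, was lower with TNF in all 3 genotypes, with 34 against 94, 32 against 90 and 43 against 118 reads (log2 change in use -0.96, edgeR adjusted p = 0.0230). Both calls were lost in each of the 6 fits without 1 library. Timp1 4-6, in the gene of a metalloproteinase inhibitor, was lower in use with TNF (log2 -0.89, edgeR adjusted p = 0.00317) at like reads, 98 and 103 in KO-named, 99 and 104 in rescue-named and 110 and 108 in basal-named libraries with and without TNF.

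Junctions in TNF target genes had more reads with TNF. Of 32 TNF target genes listed, 3 held a junction. Ccl2 2-5 had 6, 21 and 27 reads with TNF in KO-, rescue- and basal-named cells, against 0, 2 and 0 without (log2 level 4.50, edgeR adjusted p = 0.00176). Its use within the gene did not pass (log2 -0.16). Traf1 20-27 had 4, 11 and 13 reads with TNF, against 0, 1 and 0 without (log2 level 4.35, edgeR adjusted p = 0.00705). C3 46-48, in the complement C3 gene, had 2, 8 and 37 reads, against 0, 0 and 1, and was too sparse to test. The 2 interferon gene junctions, in Ddx58 and Irf7, were not tested either. In Ddx58, which encodes the RNA sensor RIG-I, there were 13, 0 and 8 reads with TNF, against 6, 0 and 0 without.

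A list of 41 genes with exons known as Ptbp1 targets held 34 junctions in 19 genes. Of the 18 tested (background 6.99% higher for level and 0.276% for use), 7 were higher and 0 lower in level in KO-named against basal-named libraries, and 3 were higher and 0 lower in use, among them Actn1 and Lrrfip1. Their median log2 change was 0.47 in level, against -0.02 over all junctions, and 0.86 in use. Rescue-named against KO-named, 1 was higher and 4 lower in level, and 0 were higher and 2 lower in use. Gabbr1 10-16, which skips a 21-nt exon in a GABA-B receptor gene, rose in level with 34 and 54 reads in KO-named, 10 and 12 in rescue-named and 6 and 11 in basal-named libraries (log2 2.30, edgeR adjusted p = 0.00176). Its use within the gene did not pass (log2 1.00). The list was drawn up with results of these data known. Of 30 SR and hnRNP splicing factor genes, 6 held a junction each, 5 were tested, and none passed for level or use in any comparison by edgeR. Of 25 matrix genes, 6 held 12 junctions, 9 of them in collagen genes, such as Col1a1 31-54 (2076 nt, in frame, 103 reads). Of 3 tested, Col6a3 4-10 was higher in level in KO-named libraries (log2 1.95, edgeR adjusted p = 0.0183) without passing for use (log2 0.62).

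The search for whole exons outside the annotation found none, but it could not decide whether such exons occur. Each deposited junction joins nodes that the files list, so an exon at unlisted sites could not appear. No pair of these junctions enclosed 3 to 500 nt with both ends unused by annotated junctions. A wider search, for pairs in which each flanking junction was unannotated, found 43 pairs in 29 genes. The most-read were in Slc38a2, Gas5, Fn1, Ecm1 and Zcchc17, all built of vM21 sites, and both junctions of each of those pairs were read in all 3 genotypes. In the fibronectin gene Fn1, junction 65-68 had 22 and 15 reads in KO-named, 7 and 3 in rescue-named and 6 and 3 in basal-named libraries, and its partner 62-65 had 68 and 44, 27 and 43, and 34 and 71. They flank a 126-nt exon. These were at most 0.496% of the reads at their sites.

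Of the 1211 junctions, 13 had no read in either basal-named library, 7 had none in either KO-named one and 7 had none in either rescue-named one. The KO-named libraries alone held 4. The same counts were not taken over all junctions, the median total was 35 reads, and the part of depth was not tested. Those 4, read in the KO-named libraries alone, were in Ptbp1 and Hp1bp3 and a pair in Catsperd, a sperm ion channel subunit gene. Catsperd as a whole was nearly confined to these libraries, at 16 and 15.1 TPM in KO-named, 0.4 and 0.6 TPM in rescue-named and 0.3 and 0.8 TPM in basal-named ones, and its annotated junctions behaved likewise. Its 3 tested junctions rose in level (log2 3.67 to 6.69) with no call for use. Among the 7 absent from KO-named libraries, Laptm4a 2-5, in a lysosomal membrane protein gene, had 9 and 22 reads in rescue-named and 4 and 3 in basal-named libraries. Cdhr1 1-3, in a cadherin gene known from photoreceptors, had 6 and 7 in rescue-named and 18 and 6 in basal-named ones.

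Of the 5 most-read unannotated junctions, Pdlim7 11-14, described above, was higher in KO-named libraries in level and use, Anxa1 10-25 in level alone, and the other 3 passed neither test between KO-named and basal-named libraries. Fstl1 3-6, an intron of vM21 in the follistatin-like 1 gene, had 5444 reads and took 100% of the reads at its sites in every library, from 50.1 to 61.9 RPM by genotype. Anxa1 10-25, in the gene of the calcium-dependent membrane-binding protein annexin A1, skips 6 exons in frame. It had 3072 reads and took 16.4% to 18.6% of the reads at its sites. Ptov1 7-25 (2362 reads) took 41% to 43.5%, and Itga5 22-25 (2216 reads), in the gene of the fibronectin receptor subunit integrin alpha 5, took 100%. Anxa1 was higher in level in KO-named libraries (log2 0.95, edgeR adjusted p = 0.00511) at the same use within the gene (log2 0.01).

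The cells' endothelial label rested on few markers. Of 12 endothelial genes, only Eng and Flt1 were above 1 TPM in every library, 3 (Tie1, Emcn, Cldn5) were at 0 in all, and Cdh5, Pecam1 and Kdr did not exceed 0.6 TPM. Of 11 smooth muscle and fibroblast markers, 6 were above 1 TPM in every library, and Myh11 did not exceed 0.3 TPM. The sum of the 11 was 3356 and 5046 TPM in KO-named, 2621 and 5586 TPM in rescue-named and 3293 and 5856 TPM in basal-named libraries, mostly Col1a1, Acta2 and Col3a1. Of 5 neuronal markers, 3 were above 1 TPM in every library, and their sum was 69.8 and 126 TPM in KO-named, 30.2 and 57.6 TPM in rescue-named and 37.8 and 90.4 TPM in basal-named libraries, mostly Map2 and Tubb3, with Rbfox3 at 0. Of 6 blood and macrophage markers, Cd68, Csf1r and Cd14 were above 1 TPM in every library and Ptprc, Adgre1 and Itgam were at 0 in all. Their sum was 42.3 and 28 TPM in KO-named, 38.4 and 22.6 TPM in rescue-named and 63.9 and 34.2 TPM in basal-named libraries. Epithelial markers summed to at most 1.1 TPM. The part of these genes in the junction differences was not tested. The paralogue Ptbp2, which Ptbp1 is known to keep low, was at 83.6 and 104.5 TPM in KO-named, 41.5 and 37.6 TPM in rescue-named and 23.2 and 29.1 TPM in basal-named libraries.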

How the data were processed

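Total RNA was sequenced as mRNA libraries, 1 per genotype and treatment, 6 in all. The authors deposited whole-number read counts per splice junction, the unit tested here. Per the file headers, they also deposited psi as a fraction per node, with the estimated counts of reads behind it, and TPM with an expected count per gene. The aligner, splicing tool and annotation release are not given in the sources used here; per the submitters' processing notes RSEM was among the tools, but its output is not used here. Isoform tables were not used.

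Junctions were joined over libraries by coordinates and gene, absent ones as 0, and set against GENCODE vM21 (GRCm38). Levels were tested with edgeR 4.0.16 (quasi-likelihood, TMM factors, filterByExpr, genotype plus TNF, 2 residual degrees of freedom) and use within the gene with its diffSpliceDGE, with Benjamini-Hochberg adjustment over all 112574 and 111600 junctions. Both were tested on simulated data. Junction reads per library were 14729518 to 16886361. Wilson and exact 95% intervals and the floor of 3 reads per library cover counting error only, since reads without molecular identifiers are not independent molecules. Groups were read from file names. Alternatives were the labels' groups, library totals, RLE size factors, DESeq2 1.42.0, other read minimums, other denominators and leaving out each library.

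Described by rule were junctions past both tests in 1 direction with 10 or more reads in both libraries of the higher genotype (the 12 largest rises and 8 largest falls in use, 1 per gene; 5 each for the other comparisons), members of fixed lists past the use test, 6 candidate exon pairs and the 5 most-read. Others were chosen after their values were seen: Idh3b, Cttn 14-19 and 11-19, Tecr, Timp1, Piezo1, Prkd1, Gabbr1, Actn4, Mical2 22-26, Hspg2 34-36, Catsperd, Laptm4a, Cdhr1, Gorasp2, Nap1l1, Ddi2, Washc2, Hp, Trim30a and the list members without a call for use. Of the 25 junctions called for use in KO-named against basal-named libraries, 2 are counted but not reported one by one here. The junctions, lists and tests were chosen with earlier results of these data known.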

Additional observations from a re-analysis of the deposited data

How the results depend on the processing

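The results rest on the file-name groups. With the labels' groups, edgeR called 0 junctions for level in place of 74 (KO against basal), 62 (rescue against KO) and 26 (TNF), and 0, 1 and 0 for use in place of 25, 25 and 3. At an unadjusted p under 0.05 those fits had 3, 3 and 13 for level and 11, 11 and 14 for use. Of the 27 named results, 25 reversed with those groups. For KO against basal the log2 changes in use became -2.54 for Aak1, -1.04 for Actn1, 0.87 for Arhgef11, -0.51 for Col4a5, -3.00 for Dctn1, -6.10 for Hp1bp3, -3.01 for Hspg2, -0.13 for Lrrfip1, -2.84 for Mical2, 0.30 for Pam, -1.56 for Phldb2, -6.50 for Ptbp1, -1.81 for Rapgef1, 0.77 for Rapgef2 and -1.29 for Ube4b. For rescue against KO they became 3.24 for Aak1, -0.32 for Ankrd52, -0.98 for Arhgef11, 0.70 for Cttn, 6.52 for Hp1bp3, 7.29 for Ptbp1, -0.16 for Rapgef2, -0.34 for Smarca4, -0.23 for Tbc1d9b and 0.77 for Xpo5. The cause was not tested. DESeq2 called 22, 14 and 6 junctions for level in KO-named against basal-named, rescue-named against KO-named and TNF, where edgeR called 74, 62 and 26. Leaving out each library in turn, counts ran from 60 to 84, 9 to 96 and 11 to 58 for level and from 10 to 25, 2 to 25 and 0 to 1 for use in the same comparisons. Those fits have 1 residual degree of freedom and take a lone library to vary like the others. Library totals, RLE size factors and a filter at 20 reads left all 27 named results on the same side. Without 1 library, 7 of the 27 kept their call in every fit and 20 lost it in at least 1. Over the 1211 junctions alone, shares of junction reads were 0.122%, 0.125%, 0.112%, 0.112%, 0.107% and 0.110% in the libraries labelled WT_TNF, Rescue, Rescue_TNF, KO_TNF, KO and WT. Median site use over the 1211 was 4.27%, 4.14%, 3.36%, 3.56%, 3.57% and 3.39% in that order, and as a share of all junction reads of the gene 0.540%, 0.542%, 0.426%, 0.462%, 0.488% and 0.461%. Depth kept 757 junctions from any test. No paired analysis was possible because each group had 1 library and the only replicate number was 1.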

Other observations

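A few junctions not described above differed widely between libraries. Tpm1 35-44, in the tropomyosin 1 gene, joins sites of different transcripts and had 20 reads with TNF and 7 without in KO-named, 3 and 1 in rescue-named and 0 and 0 in basal-named libraries, too few to test. Washc2 49-53, in the gene of a subunit of the endosomal WASH complex, had 10 and 7, 3 and 4, and 0 and 0. In the acute-phase gene Hp, which encodes haptoglobin, junction 1-5 had 0 and 0 reads in KO-named, 10 and 0 in rescue-named and 59 and 2 in basal-named libraries. Its level was higher with TNF (log2 4.76, edgeR adjusted p = 0.00130) and its use within the gene did not pass (log2 -0.06). Trim30a 4-7, over a 23-nt exon, had 15 and 14, 4 and 0, and 36 and 4 reads. Tbc1d9b held, beside its unannotated junction, a 51-nt exon with a psi of 0.554 and 0.552 in KO-named, 0.138 and 0.17 in rescue-named and 0.0676 and 0.0663 in basal-named libraries.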
